A study of Bos taurus with 11 samples.

Results

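PKLR and GCKR encode, respectively, the pyruvate kinase of liver and red cells and a regulatory protein of the hepatocyte, which act at opposite ends of hepatic glycolysis. These 2 genes were taken by name from the 21996 Ensembl genes counted in liver RNA of dairy cows, and both passed the minimum of 5 reads in any 1 cow, as did 13960 genes (63.5%) in all, which were tested. PKLR is ENSBTAG00000017056. GCKR is ENSBTAG00000031302, an identifier read from the name columns of the study's gene list. The counts refer to gene models of the BCM4 assembly, whose coordinates and sequences were not used here.

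The liver samples came from 11 multiparous Holstein-Friesian cows slaughtered about 14 days after calving, in the first follicular wave. The 5 cows in mild negative energy balance (MNEB) had free access to silage with more concentrate and were milked less often, and the 6 cows in severe negative energy balance (SNEB) had a restricted diet and were milked more often. Diet and milking frequency differed together between the groups and cannot be told apart, and cows with extremes of energy balance had been selected from larger groups. Each library came from polyA RNA of 1 cow, and all cows were lactating and in negative energy balance, so there was no group in positive balance. The samples were whole liver, in which fewer cells of a type and less RNA per cell cannot be told apart.

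GCKR is an inhibitory protein of the hepatocyte nucleus that restrains the entry of glucose into glycolysis, and fructose 1-phosphate relieves its inhibition. Pyruvate kinase, the PKLR product, catalyses the last step, from phosphoenolpyruvate to pyruvate; glucagon inhibits the liver enzyme through phosphorylation, while insulin and carbohydrate raise its transcription. Ruminants absorb little glucose from the gut, so their liver runs mostly in the direction of gluconeogenesis, with propionate as the chief precursor.

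The 11 cows were sequenced on 19 lanes of 3 flow cells, named A, B and C here. Reads on genes had a median of 3369237 per MNEB cow (range 1774011 to 4005322) and of 3941504 per SNEB cow (range 1869837 to 6852142). The difference in mean totals was within the spread between cows (exact permutation test, two-sided, over 462 splits, p = 0.381). Levels are given as counts per 1000000 reads on genes (CPM), with the totals scaled by TMM. The quasi-likelihood test of edgeR was applied, a gene is termed called where its adjusted p was below 0.1, the limit in the study's methods, and fold changes are SNEB over MNEB.

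PKLR, the glycolytic enzyme of the pair, had 366, 333, 272, 319.7 and 291 CPM in MNEB1 to MNEB5. In the 6 SNEB cows it had between 139 and 248 CPM, with a median of 198. The lowest MNEB cow, MNEB3, lay above the highest SNEB cow, SNEB5, so the groups did not overlap. SNEB3 had the lowest PKLR level of the 11 cows and MNEB1 the highest.

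The means of PKLR were 316 ± 36.7 CPM (SD, n = 5) in MNEB and 193 ± 36.1 CPM (SD, n = 6) in SNEB cows. PKLR fell in SNEB cows by 0.71 on the log2 scale (SE 0.13, adjusted p = 0.0407 from edgeR), an MNEB level 1.64 times that of SNEB. An exact two-sided permutation test of the difference in mean CPM gave p = 0.0021645, the smallest that 462 splits allow. By edgeR's p-value PKLR stood at place 35 of the 13960 genes.

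GCKR, the inhibitory protein, moved the other way. It had 2.21, 0.520, 1.18, 0.895 and 0.253 CPM in MNEB1 to MNEB5, from 9, 1, 2, 3 and 1 reads. In the 6 SNEB cows it had between 4.13 and 16.1 CPM, with a median of 4.56, from 30, 11, 30, 29, 19 and 15 reads in SNEB1 to SNEB6. The lowest SNEB cow, SNEB6, lay above the highest MNEB cow, MNEB1. SNEB3, the cow with the lowest PKLR, had the highest GCKR, and the other 5 SNEB cows lay within 4.13 to 6.81 CPM.

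The means of GCKR were 1.01 ± 0.756 CPM (SD, n = 5) in MNEB and 6.72 ± 4.70 CPM (SD, n = 6) in SNEB cows. GCKR rose in SNEB cows by 2.57 on the log2 scale (SE 0.54, adjusted p = 0.0667 from edgeR), or 5.93-fold. The exact two-sided permutation test of the difference in mean CPM gave p = 0.0021645 for GCKR too, again the smallest possible. GCKR stood at place 59 by edgeR's p-value.

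**Figure D1:**
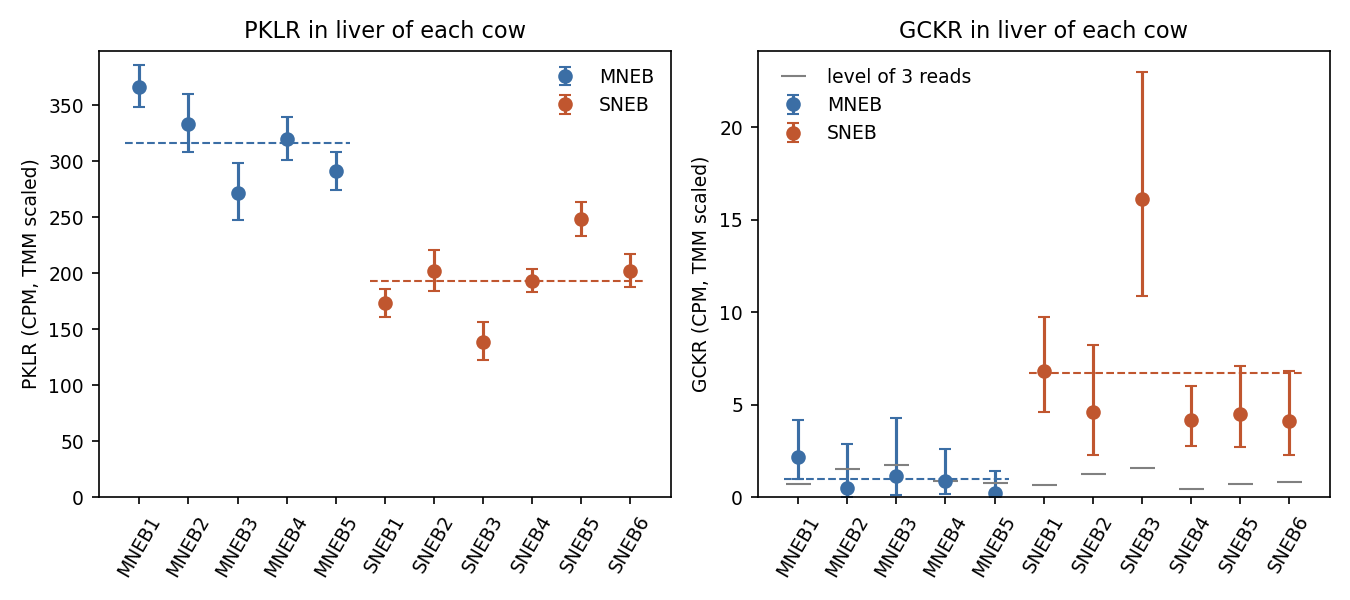
PKLR (left) and GCKR (right) in each of 11 livers, in CPM after TMM scaling; bars are exact Poisson 95% intervals, dashed lines group means, and grey marks the level that 3 reads stand for in that cow. PKLR lies at 272 to 366 CPM in the MNEB and 139 to 248 CPM in the SNEB cows, GCKR at 0.253 to 2.21 and 4.13 to 16.1 CPM.

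Both members were thus called, PKLR among the 30 lower genes (0.215% of those tested) and GCKR among the 46 higher genes (0.33%), in all 76 of 13960 (0.544%). Both are also on the study's own list of genes called on these samples, of which 17.2% were called here in edgeR. Groups that did not overlap were found in 182 genes (1.3%): in 75 genes (0.537%) with every SNEB cow lower, as for PKLR, and in 107 genes (0.766%) with every SNEB cow higher, as for GCKR. The count of 76 was 125 without MNEB1, 50 without MNEB3, 40 without MNEB5 and 120 without SNEB3. PKLR was called whichever of the 11 cows was left out, at adjusted p between 0.0242 and 0.0969 in edgeR.

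GCKR depended more on single cows. Without MNEB1, the MNEB cow with the most GCKR reads, it reached the minimum of 5 reads only in SNEB cows, so its p-value in that case is not counted (log2 fold change 3.21). On leaving out any other cow it was called in 5 cases of 10. Its adjusted p in edgeR was 0.138 without MNEB2, 0.145 without MNEB3, 0.168 without MNEB4, 0.173 without MNEB5 and 0.114 without SNEB1, with log2 fold changes of 2.45, 2.59, 2.51, 2.27 and 2.56. Without SNEB3 the log2 fold change was 2.17 (adjusted p = 0.0550). The direction for GCKR was the same in the 10 cases in which it reached the minimum in an MNEB cow.

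Samples differed in the flow cells on which they were run, and each combination of flow cells held cows of both groups. On flow cell A alone, with 1 cow of each group, PKLR had 319.7 CPM in MNEB4 and 193 CPM in SNEB4, a log2 ratio of -0.73. On B alone the ratio of SNEB3 to MNEB3 was -0.97, on C alone that of SNEB2 to MNEB2 was -0.72, and among the 2 MNEB and 3 SNEB cows run on both B and C it was -0.66. For GCKR the log2 ratios were 2.22 on A, 3.77 on B, 3.14 on C and 2.07 in cows run on both B and C. The MNEB cows on A, B and C alone had only 3, 2 and 1 GCKR reads, so these ratios are imprecise. On C the Poisson 95% intervals of MNEB2 (0.0132 to 2.90 CPM) and SNEB2 (2.29 to 8.21 CPM) overlapped. Those of the cows on A alone and on B alone were separate. The direction of both genes in mean CPM was the same within each of the 4 combinations. With the 2 cows of flow cell A left out, neither gene was called, with log2 fold changes of -0.71 for PKLR (adjusted p = 0.185 from edgeR) and 2.63 for GCKR (adjusted p = 0.193).

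**Figure D2:**
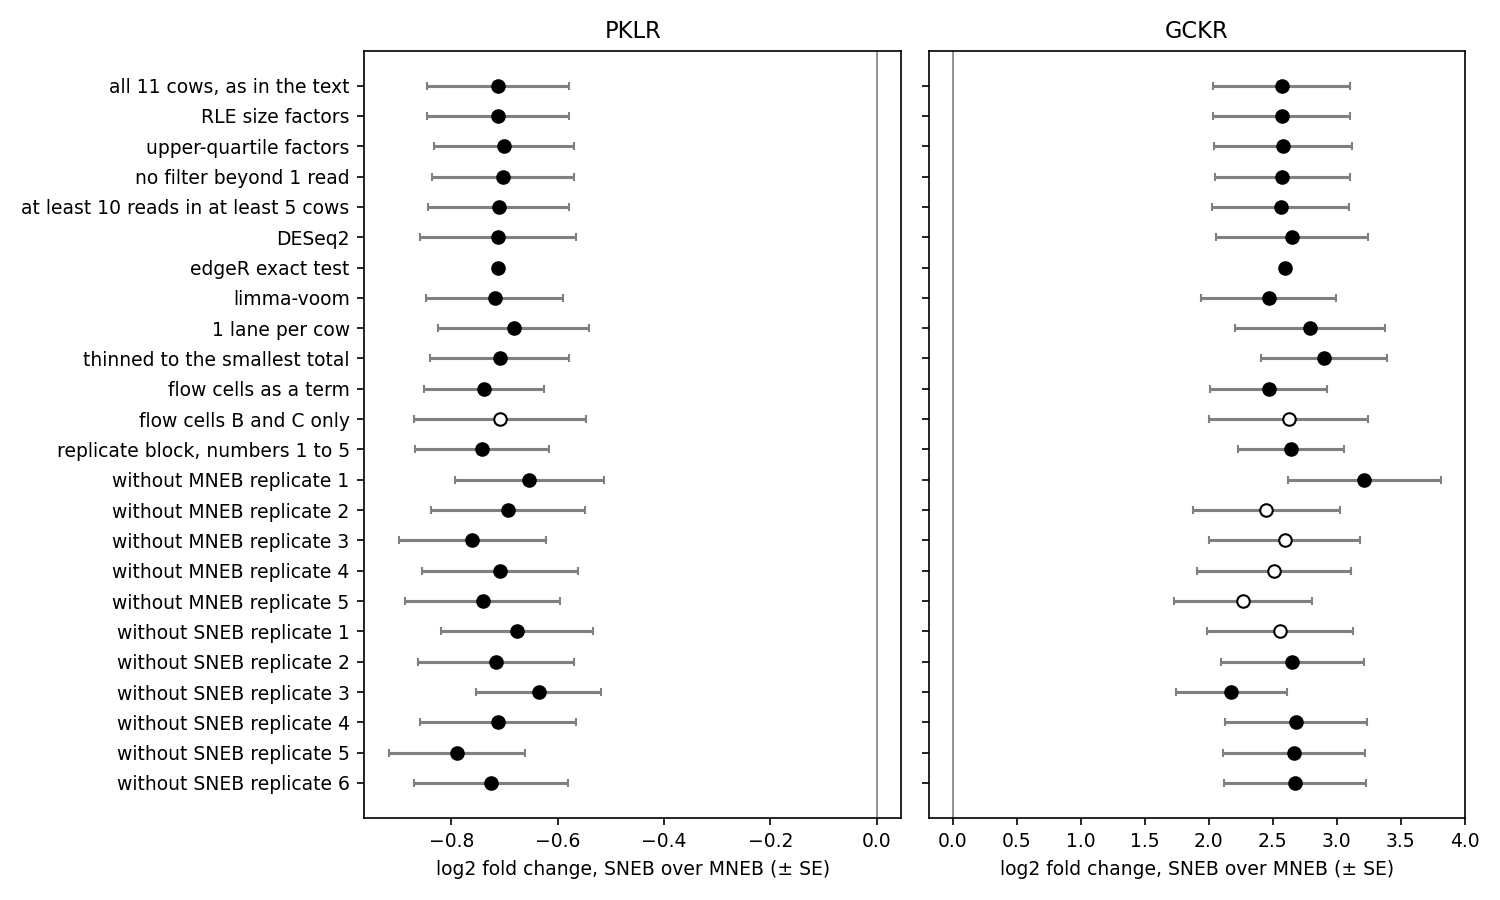
Log2 fold change of PKLR (left) and GCKR (right), SNEB over MNEB, under each processing alternative and with each cow left out; bars are ± 1 SE (none for the edgeR exact test), and filled points mark an adjusted p under 0.1. PKLR stays between -0.79 and -0.64 and GCKR between 2.17 and 3.21; without MNEB1, thinned, and with at least 10 reads in 5 cows GCKR reaches the minimum only in SNEB cows, and its call is not counted there.

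Read depth bore differently on the members. PKLR had 460 to 1494 reads in an MNEB cow and 259 to 1340 reads in an SNEB cow, so that an exact Poisson 95% interval reached 5.10% to 12.4% to either side of a cow's level. In the 7 cows with several lanes, the highest lane for PKLR exceeded the lowest by 0.312% to 19.8%, most in SNEB6. Over single lanes, without TMM scaling, PKLR had 259 to 383 CPM in MNEB and 139 to 259.9 CPM in SNEB cows, so the lane of MNEB3 and the highest lane of SNEB5 met. The variance of PKLR between cows was 12.7 times the Poisson value among MNEB and 20.2 times among SNEB cows. Separate animals can differ beyond counting error in any gene, so these ratios describe the spread and test nothing.

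For GCKR, counting error set the limit in MNEB cows. A floor of 3 reads stood for 0.735 to 1.77 CPM in these cows and for 0.433 to 1.61 CPM in SNEB cows. GCKR was under that floor in 3 of 5 MNEB cows, at it in MNEB4, and above it in all 6 SNEB cows. At least 5 reads were counted in 1 MNEB cow and in 6 SNEB cows, so the gene met the minimum for testing in MNEB1 as well as in the SNEB cows.

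The Poisson intervals of GCKR ran from 1.01 to 4.19 CPM in MNEB1, 0.0132 to 2.90 in MNEB2, 0.143 to 4.27 in MNEB3, 0.185 to 2.62 in MNEB4 and 0.00640 to 1.41 in MNEB5. The intervals of the 5 MNEB cows overlapped one another, and differences among these cows were not tested. Of the 30 pairs of an MNEB with an SNEB cow, 16 had separate intervals. At 4.13 CPM, the level of the lowest SNEB cow, the depths of MNEB1 to MNEB5 would have given 16.8, 7.95, 6.99, 13.8 and 16.3 GCKR reads, in place of the 9, 1, 2, 3 and 1 counted.

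Summed over cows, GCKR had 16 reads in the 5 MNEB cows, or 1.07 CPM of their scaled totals (exact Poisson 95% interval 0.610 to 1.73). The 6 SNEB cows had 134 reads, or 5.72 CPM (4.79 to 6.78). The ratio of these pooled levels was 5.36 (95% interval 3.18 to 9.66), in which the spread between cows is not counted. That spread gave a variance of 2.02 times the Poisson value among MNEB cows and of 8.40 times among SNEB cows. Duplicate reads had been removed by position and molecules were not marked, so these intervals and floors cover counting error only.

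Single lanes were near the limit for GCKR. At least 3 reads were found in 2 of 8 MNEB lanes, both of MNEB1, and 1 lane of MNEB5 had 0. In SNEB cows 10 of 11 lanes had at least 3 reads, and the exception was a lane of SNEB6 with 2 reads beside 13 in its other lane. The 30 reads of SNEB3 came from 1 lane, so the high level of that cow has no repeat.

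**Figure D3:**
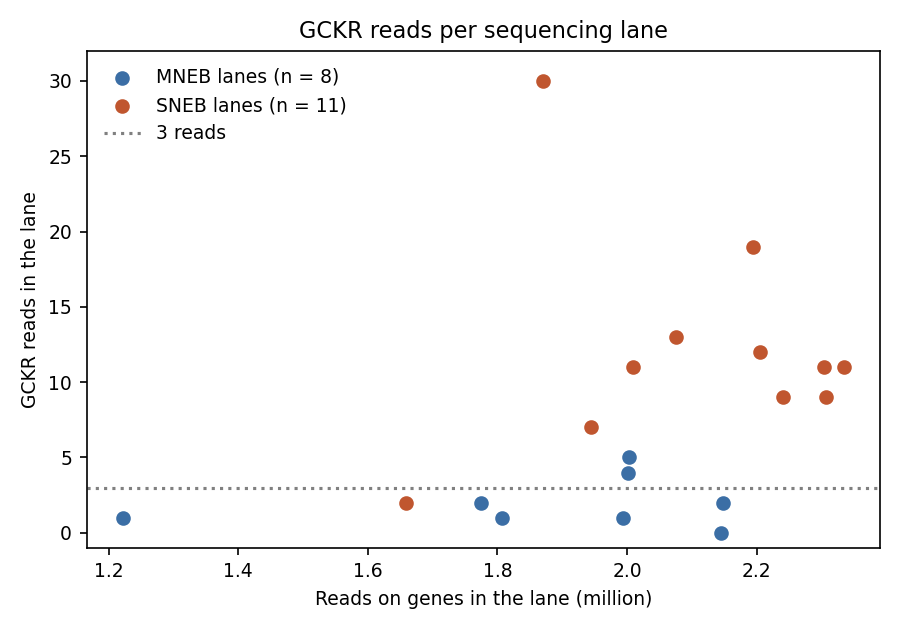
GCKR reads in each of the 19 lanes against the reads on genes in that lane, in units of 1000000 reads, for 8 MNEB and 11 SNEB lanes; the dotted line marks 3 reads. MNEB lanes hold 0 to 5 reads and SNEB lanes 2 to 30.

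The genes whose pattern over the 11 cows was most like that of each member were found by the root mean square difference in log2 CPM, each gene centred on its own mean, among 11846 genes with at least 10 reads per cow on average. The measure holds the group difference and the spread within groups together. GCKR had at most 9 reads in an MNEB cow, so it reached that average only through the SNEB cows. Its large group difference weighs heavily in the measure, so the genes closest to it are not independent evidence of its rise. Names were at hand for 381 of these genes. Closest to GCKR of all 11846 was FNDC4, which encodes a secreted fibronectin type III domain protein, at 0.565 against a median of 1.28 for all genes. FNDC4 lies directly beside GCKR in the RefSeq gene order of the ARS-UCD2.0 assembly.

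FNDC4 had 32.6, 29.6, 21.9, 35.8 and 21.2 CPM in MNEB1 to MNEB5 and between 60.8 and 128 CPM (median 95.8) in SNEB cows. Its highest level was in SNEB3, as for GCKR, and its groups did not overlap. FNDC4 rose by 1.76 on the log2 scale (SE 0.21, adjusted p = 0.00538 from edgeR) and had the smallest p-value of all genes tested. GCKR reads amounted to 6.77, 1.75, 5.41, 2.5 and 1.19% of FNDC4 reads in MNEB1 to MNEB5, and to 6.61, 5.19, 12.6, 3.66, 7.45 and 4.84% in SNEB1 to SNEB6. The share was thus not constant over cows, and summed over cows of a group it came to 3.71% for MNEB and 5.92% for SNEB. MNEB1 alone gave 9 of the 16 GCKR reads in MNEB cows, so the MNEB sum rests largely on that cow. In the other MNEB cows the share lay between 1.19 and 5.41%. The library kit does not mark strand, so where the models of 2 neighbours overlap their reads cannot be told apart. Whether those of GCKR and FNDC4 do in the BCM4 annotation was not tested.

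**Figure D4:**
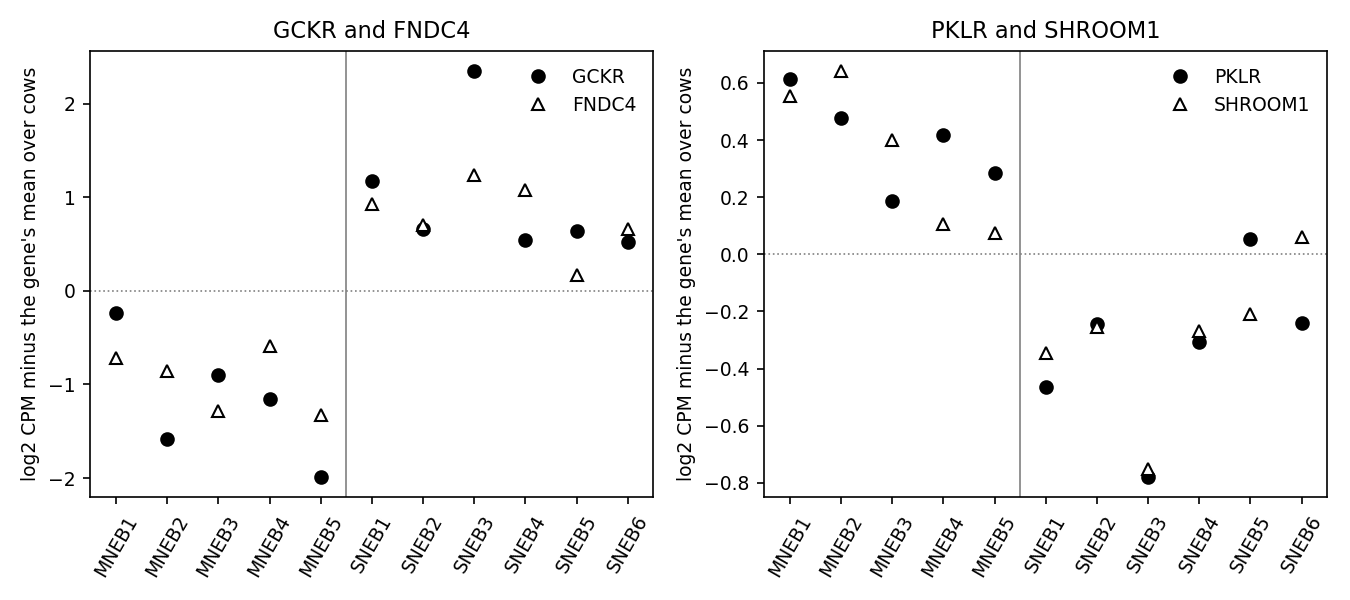
Log2 CPM of each cow minus the gene's mean over the 11 cows, for GCKR with FNDC4 (left) and PKLR with SHROOM1 (right); the vertical line parts MNEB from SNEB cows. SNEB3 is the highest cow for GCKR and FNDC4 and the lowest for PKLR and SHROOM1.

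The next named genes in likeness to GCKR were MOGAT3, an acyltransferase of diacylglycerol synthesis, at 0.643, the sulfotransferase SULT1C2 at 0.673, the secreted protein ISM1 at 0.701 and the hepatokine FGF21 at 0.735. They held places 3, 5, 6 and 7 of the 11846 genes. MOGAT3 had 3 to 10 reads in an MNEB cow and 15 to 39 in an SNEB cow. Like GCKR, it thus reached the required average only through the SNEB cows.

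Closest to PKLR of all 11846 genes was SHROOM1, which encodes an actin-binding protein, at 0.189 against a median of 0.522. SHROOM1 had 228, 242, 205, 167 and 163 CPM in MNEB1 to MNEB5 and between 91.7 and 162 CPM (median 129) in SNEB cows, with SNEB3 lowest as for PKLR. The groups of SHROOM1 did not overlap, though MNEB5 and SNEB6 nearly met, and with -0.65 on the log2 scale it was not called in edgeR (SE 0.15, adjusted p = 0.105). SHROOM1 was called in DESeq2 (adjusted p = 0.00797) and the edgeR exact test (0.0117), and in edgeR with at least 10 reads in 5 cows (0.0968) and without SNEB6 (-0.72, adjusted p = 0.0790). SYNJ2 (0.273), TLE1 (0.294), HSD17B2 (0.295) and SEMA4B (0.298) followed among named genes, at places 43, 71, 74 and 86, and so many unnamed genes lay closer to PKLR than they did.

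Of other genes of hepatic sugar metabolism, those with a name in the study's gene list could be identified. That list holds the genes the study itself called on these samples, with DESeq at the same minimum. So the direction of a gene on it, and its call, are not independent evidence. The study's methods give the limit of that list as 0.1, but its results give it as 0.1%. The shares of the list called here may thus not rest on the same limit. Of its 413 genes, 71 were called here in edgeR (17.2%), 184 in DESeq2 (44.6%), 191 in the edgeR exact test (46.2%) and 66 in limma-voom (16.0%). Over all genes tested these shares were 0.544%, 2.08% (290 genes), 1.82% (254 genes) and 0.494% (69 genes). PKLR was the only identified gene of 24 glycolytic enzymes and GCKR the only one of 6 regulators of such enzymes. PCK1, PC, MLXIPL and HNF4A were not analysed here. Over all genes tested the median log2 fold change was -0.01.

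Of 15 genes of hexose transport and fructose use, 3 were identified, of which SLC2A12 is not counted for the reason given below. Neither SLC2A2 nor SLC2A5 was called in edgeR. SLC2A2, the main glucose carrier of hepatocytes, had 238, 319, 602, 425 and 387 CPM in MNEB1 to MNEB5 and between 156 and 299.9 CPM in SNEB cows, with a median of 227. MNEB1 lay within the SNEB range and the other 4 MNEB cows above it (log2 fold change -0.76, SE 0.21, edgeR adjusted p = 0.212). The fructose carrier SLC2A5 had 28.9, 34.8, 19.5, 7.76 and 12.1 CPM in MNEB1 to MNEB5 and between 1.07 and 13.8 CPM (median 3.68) in SNEB cows, with overlap through MNEB4, MNEB5, SNEB4 and SNEB5 (log2 fold change -1.78, SE 0.50, edgeR adjusted p = 0.216). SLC2A12, another glucose carrier, had 0 to 4 reads in an MNEB and 2 to 32 reads in an SNEB cow. It reached the minimum of 5 reads only in SNEB cows, so its p-value is not counted. SLC2A2 and SLC2A5 had an unadjusted p under 0.05, as had 8.35% of the genes tested. Both were called in DESeq2 and in the edgeR exact test, and neither in limma-voom. DESeq2 and the exact test called 44.6% and 46.2% of the named genes, and 2.08% and 1.82% of those tested. In edgeR, SLC2A2 was called with flow cells as a term (-0.69, adjusted p = 0.0901) and without MNEB1 (-0.90, adjusted p = 0.0744). It was also called in edgeR with the replicate number as a block (-0.70, adjusted p = 0.0454, against 0.381 in the same cows without the block). SLC2A5 was called in edgeR without SNEB4 (-2.34, adjusted p = 0.0789) and in the 9 cows not run on flow cell A (-2.56, adjusted p = 0.0456). With cows thinned to the smallest total, SLC2A5 was called too (-2.06, edgeR adjusted p = 0.0839).

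Of 23 genes of gluconeogenesis, the pathway that opposes PKLR, 3 were identified and 0 were called in edgeR. Glycerol kinase (GK), which brings glycerol into the pathway, had 42.2, 87.3, 77.4, 105 and 103 CPM in MNEB1 to MNEB5 and between 121 and 175 CPM (median 127) in SNEB cows. The groups did not overlap for GK, with a log2 fold change of 0.71 (SE 0.20) and an edgeR adjusted p of 0.218. GK was the 1 gene of the 3 with an unadjusted p under 0.05, beside 8.35% of the genes tested. It was also the 1 called in DESeq2 (adjusted p = 0.0593) and the edgeR exact test (0.0640). Those tests called 44.6% and 46.2% of the named genes, and 2.08% and 1.82% of those tested. FBP2, the muscle-type fructose bisphosphatase, had 2.21, 1.04, 113, 1.79 and 141 CPM in MNEB1 to MNEB5 and between 5.36 and 249 CPM in SNEB cows. FBP2 was thus low in 3 MNEB cows and in SNEB3 and high in the other 7 cows, which crossed the groups (edgeR adjusted p = 0.819). SDSL, a gene like that of serine dehydratase, had 2.70, 5.72, 0.591, 2.69 and 19.96 CPM in MNEB1 to MNEB5 and between 0.417 and 4.83 CPM (median 3.27) in SNEB cows, with overlap (log2 fold change -1.27, SE 0.66, edgeR adjusted p = 0.661). Without MNEB5 the log2 fold change of SDSL was -0.08 (adjusted p = 0.994). PKLR and GCKR showed no split like that of FBP2.

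Of 16 genes that decide the fate of pyruvate, made by the PKLR enzyme, 1 was identified. PDK4, which inhibits the pyruvate dehydrogenase complex, had 164, 94.6, 112, 43.6 and 61.1 CPM in MNEB1 to MNEB5 and between 71.9 and 283 CPM (median 214) in SNEB cows. SNEB3 alone among SNEB cows lay within the MNEB range of PDK4 (log2 fold change 1.11, SE 0.35, edgeR adjusted p = 0.291). PDK4 was called in DESeq2 (1.11, adjusted p = 0.0826) and, in edgeR, without SNEB3 (1.28, adjusted p = 0.0883). Of 26 genes of glycogen metabolism 2 were identified, the glycogen-targeting subunits PPP1R3B and PPP1R3C, with log2 fold changes of -0.54 and -0.64 (edgeR adjusted p = 0.507 and 0.664) and overlapping groups. These values were -0.33 and -0.35 without MNEB3, and -0.64 and -0.94 without SNEB3.

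Of 16 genes of insulin and glucagon signalling, 5 were identified and 2 were called in edgeR, both higher, beside 17.2% of the named genes and 0.544% of those tested. The median log2 fold change of the 5 was 0.83. Their part in the level of PKLR was not tested. FGF21, a hormone of the fasted liver, had 92.9, 51.4, 63.3, 40.6 and 87.4 CPM in MNEB1 to MNEB5 and between 136 and 189.8 CPM (median 174) in SNEB cows. It rose by 1.31 on the log2 scale (SE 0.20, adjusted p = 0.00953 from edgeR). The salt-inducible kinase SIK2 had 71.6, 82.6, 76.9, 75.5 and 89.7 CPM in MNEB1 to MNEB5 and between 93.9 and 178 CPM (median 138) in SNEB cows, and rose by 0.84 on the log2 scale (SE 0.16, adjusted p = 0.0422 from edgeR). Groups did not overlap for FGF21 and SIK2. The call of SIK2 was lost without MNEB3 (0.83, edgeR adjusted p = 0.103), without MNEB4 (0.82, adjusted p = 0.113) and in the 9 cows not run on flow cell A (0.75, adjusted p = 0.203). IRS1, an adaptor of the insulin receptor, had a log2 fold change of -0.75 (edgeR adjusted p = 0.253). It was called, as lower, in DESeq2 (adjusted p = 0.0999), in the edgeR exact test (0.0909) and with flow cells as a term in edgeR (0.0999). DESeq2 and the exact test thus each called 3 genes of this list. They called 44.6% and 46.2% of the named genes, and 2.08% and 1.82% of those tested. TRIB1 and SIK1 were not called in edgeR; SIK1 was named after its values were seen.

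Of 28 transcription factors and coactivators of hepatic sugar metabolism 5 were identified, and 0 were called in edgeR. An unadjusted p under 0.05 was found for 3, beside 8.35% of the genes tested. DESeq2 called 2, the edgeR exact test 2 and limma-voom 1. The shares called by these tests were 44.6%, 46.2% and 16.0% in the named genes. Over all genes tested they were 2.08%, 1.82% and 0.494%. CREB3L3, a factor of the fasted liver that acts on FGF21, had log2 fold change 0.55 (SE 0.13, edgeR adjusted p = 0.105), with overlap through MNEB2. It was called in DESeq2 (adjusted p = 0.0130), in the edgeR exact test (0.0200) and in limma-voom (0.0586), and in edgeR with upper-quartile factors (0.0797), with at least 10 reads in 5 cows (0.0968) and without MNEB2 (0.69, adjusted p = 0.0129). PPARGC1A, a coactivator of gluconeogenic genes, had 0.60 (adjusted p = 0.636), CEBPA 0.68 (0.457) and KLF15 -0.50 (0.681), from edgeR. FOXA3, named after its values were seen, had log2 fold change -1.20 (SE 0.32, edgeR adjusted p = 0.183), with groups that did not overlap, as for PKLR, and was called in DESeq2 (adjusted p = 0.0283) and the edgeR exact test (0.0292).

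**Figure D5:**
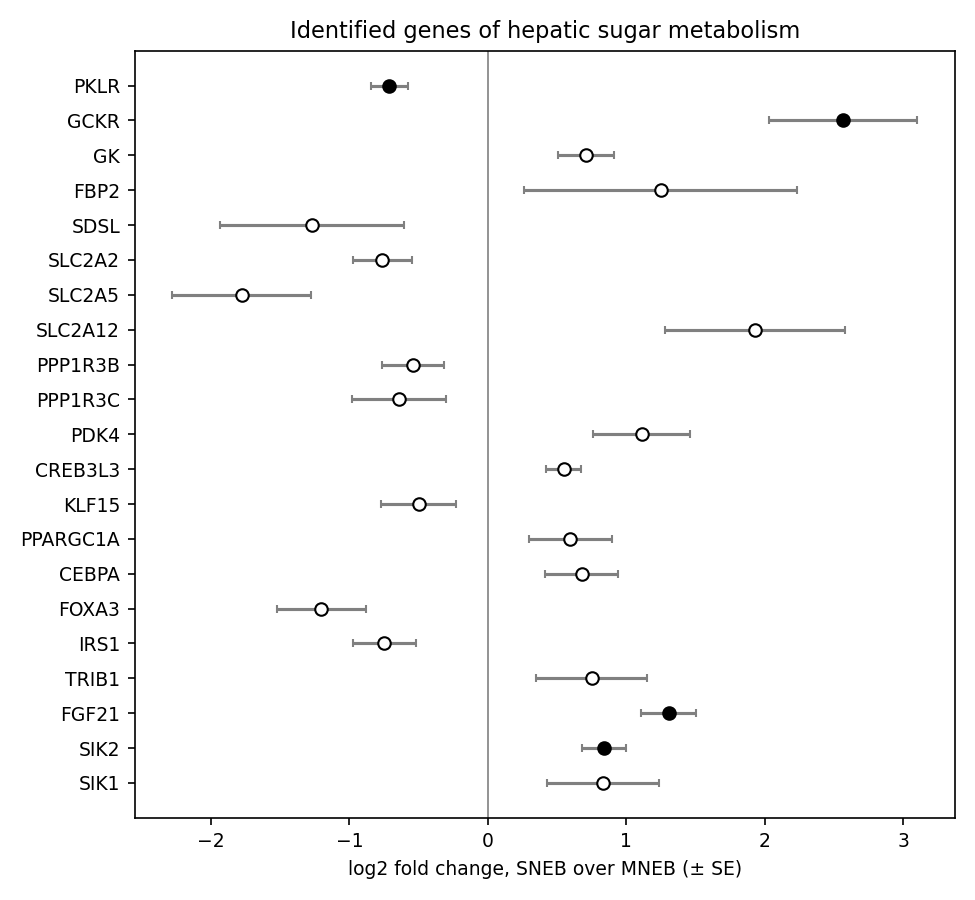
Log2 fold change, SNEB over MNEB, of PKLR, GCKR and 19 further identified genes of hepatic sugar metabolism; bars are ± 1 SE and filled points mark an adjusted p under 0.1 in edgeR. PKLR (-0.71), GCKR (2.57), FGF21 (1.31) and SIK2 (0.84) are filled.

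Because PKLR also encodes the red cell enzyme, from another promoter, erythroid markers were set beside it; gene counts do not part the isoforms. Of 18 such markers 2 were identified, HBB and KEL, and the other 16 were not analysed here. Their summed level was 4.41, 111, 11.8, 2.39 and 58.9 CPM in MNEB1 to MNEB5 and between 4.33 and 23.8 CPM (median 12.3) in SNEB cows. KEL was the more abundant in every cow. The markers did not go together in MNEB5, with 57.9 CPM of KEL and 1.01 CPM of HBB, so their sum cannot be read as red cell content. HBB had 49.9 CPM in MNEB2, 0 in MNEB3 and at most 1.19 CPM in every other cow. PKLR in MNEB2, at 333 CPM, lay within the 272 to 366 CPM of the other MNEB cows, and without MNEB2 its log2 fold change was -0.69 (edgeR adjusted p = 0.0935).

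All 17 identified markers of other cell types and of proliferation, the erythroid pair included, had a negative log2 fold change, the direction of PKLR, against 51.6% of the genes tested and 47.2% of the 413 named genes. Of the 17, 11 are proliferation genes, whose summed level was highest in MNEB1, SNEB2 and MNEB5. All 17 are also on the study's list of genes called on these samples, so they do not count as separate observations. The list medians were -2.65 (erythroid), -0.62 (leukocyte), -0.70 (cholangiocyte), -0.56 (endothelial) and -0.74 (proliferation), but single cows carried several of them. Without MNEB2 the erythroid median was -0.43 (HBB -0.13, KEL -0.73) and the endothelial value -0.20. The proliferation median was -0.05 without MNEB1 and -1.48 without SNEB2. Without MNEB1, 3 proliferation genes, MKI67 (0.26), BIRC5 (0.11) and FOXM1 (0.34), had a positive value; BIRC5 and FOXM1 were named after their values were seen. The levels were also uneven over the cows. Of 14 hepatocyte markers none had an identifier, so the labelled tissue could not be checked with them. Leukocyte markers (2 of 16, MARCO the more abundant) summed to 158, 277, 125, 221 and 219.8 CPM in MNEB1 to MNEB5 and to between 75.6 and 255 CPM in SNEB cows. The cholangiocyte marker PKHD1 (1 of 9) had 33.8 to 68.9 CPM in MNEB and 25.1 to 33.8 CPM in SNEB cows, and the endothelial marker PLVAP (1 of 14) 52.0 to 234 and 54.2 to 109.9 CPM. Of these marker genes, the erythroid pair included, 0 were called in edgeR, beside 17.2% of the named genes and 0.544% of those tested. HBB, TIMD4 and PKHD1 had an unadjusted p under 0.05, as had 8.35% of the genes tested. DESeq2 and the edgeR exact test called PKHD1, and the exact test also HBB. Those tests called 44.6% and 46.2% of the named genes, and 2.08% and 1.82% of those tested. In edgeR, TIMD4 was called as lower without SNEB3 (-0.85, adjusted p = 0.0792). Proliferation markers (11 of 13 identified, 0 called and 0 with an unadjusted p under 0.05 in edgeR, 0 called in DESeq2) summed to 778, 73.8, 102, 166 and 517 CPM in MNEB1 to MNEB5 and to between 55.3 and 637 CPM in SNEB cows. Their part in the levels of PKLR and GCKR was not tested.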

How the data were processed

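Liver polyA RNA of each cow had been sequenced as single Illumina reads. The authors processed the reads of each lane with CASAVA 1.4, aligned them to BCM4 with Bowtie, kept uniquely aligned reads, removed duplicates by position and counted reads per Ensembl gene with HTSeq (union mode). Deposited were those raw counts, not normalized. The strand setting is not given in the sources used here. Removal of duplicates limits how far a count can rise.

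Lanes were summed per cow. Genes reaching 5 reads in any cow entered edgeR 4.0.16 in R 4.3.3 (TMM, quasi-likelihood test, Benjamini-Hochberg adjustment over all 13960 genes, limit 0.1). Each SE was obtained from the log2 fold change and the root of its F statistic. Alternatives used limma 3.58.1 and DESeq2 1.42.0; permutation tests and intervals used Python 3.11.15 and scipy 1.17.1, plots matplotlib 3.10.9. Before random allocation the study had blocked its cows by parity, body condition and yield in the previous lactation. The sample labels do not give these blocks, so cows were treated as separate animals and were not paired.

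Names came only from the study's gene list (413 identifiers, all 413 in the counts), which holds its own DESeq calls on these samples, and neighbours from RefSeq ARS-UCD2.0. Genes were named by a rule: the members; per list, called genes and up to 4 with the largest mean count; FNDC4; and the 5 named genes most like each member (prior count 2). Others are marked as named after their values were seen. The members and lists were chosen with earlier results of these data known. An ill MNEB cow's library was not analysed here.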

Additional observations from a re-analysis of the deposited data

Results flagged for a closer look

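In a group of 5 or 6 cows, a highest or lowest cow was singled out where its gap to the nearest other cow took a large share of the group's range (Dixon's limit at 95%). This was looked at in 104 groups of 52 genes, and 11 results were found, each for a highest cow. For normal values and independent groups, chance gives about 1 in 20 groups. CPM were not on a log scale here and several genes shared a cow, so the 11 cannot be judged against that share. GCKR in SNEB3, at 16.1 CPM, stood apart from the 4.13 to 6.81 CPM of the other SNEB cows. Among genes of sugar metabolism, SDSL had 19.96 CPM in MNEB5 (others 0.591 to 5.72), PPARGC1A 239 CPM in MNEB3 (92.8 to 117) and TRIB1 271 CPM in MNEB2 (65.7 to 124). Among markers, HBB had 49.9 CPM in MNEB2 (0 to 1.01) and TIMD4 77.2 CPM in SNEB3 (24.7 to 43.8). Of proliferation genes, CENPF had 75.9, BIRC5 52.6, CENPE 11.3 and FOXM1 16.7 CPM in SNEB2, and FOXM1 34.3 CPM in MNEB1; BIRC5, CENPE and FOXM1 were named after their values were seen.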

How the results depend on the processing

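Over 12 processing alternatives the log2 fold change of PKLR lay between -0.74 and -0.68 (adjusted p 0.000337 to 0.185) and that of GCKR between 2.47 and 2.90 (adjusted p 0.000612 to 0.193). PKLR was called in 11 of 12. GCKR reached the minimum only in SNEB cows in 2 (thinned, which gave the 2.90, and at least 10 reads in 5 cows), and was called in 9 of the other 10. The exception for both was flow cells B and C only, with 9 cows (-0.71 for PKLR, 2.63 for GCKR). With each cow left out, PKLR ranged from -0.79 to -0.64 and GCKR from 2.17 to 3.21, and the mean GCKR level of MNEB cows from 0.713 to 1.201 CPM. The 3.21 came without MNEB1, where GCKR reached the minimum only in SNEB cows. The count of 76 called genes was 290 with DESeq2, 254 with the edgeR exact test, 50 with 1 lane per cow and 34 on flow cells B and C only, and 40 to 125 with a cow left out; the cause was not tested. Without MNEB1, MKI67 (0.26), BIRC5 (0.11) and FOXM1 (0.34), none of them called and the last 2 named after their values were seen, reversed; with a cow left out they ranged from -1.09 to 0.26, -1.48 to 0.11 and -1.75 to 0.34. Of 1196 values of 50 other genes, 3 reversed, 37 lost and 47 gained a call, and 1109 did neither.

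The labels do not say that a replicate number marks a batch, but MNEB and SNEB cows of the same number, 1 to 5, were run on the same flow cells, so the number and the flow cells go together. Deviations of cows 1 to 5 from their group correlated with those of the same number at r = 0.27, -0.000758, 0.32, 0.02 and -0.04, and 1 of 5 MNEB cows correlated best with its own number. With flow cells as a term, PKLR was at -0.74 (adjusted p = 0.0248 from edgeR) and GCKR at 2.47 (adjusted p = 0.0575), and 100 genes were called. With the number as a replicate block, PKLR was at -0.74 (adjusted p = 0.0737 from edgeR), GCKR at 2.64 (adjusted p = 0.0601), SLC2A2 at -0.70 (adjusted p = 0.0454, against 0.381 in the same cows without the block), and 83 genes were called, against 56 in the same 10 cows without the block, a fit chosen after seeing the data.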

Other observations

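Neighbours of the members were looked at after values had been seen, among the 25 protein-coding genes on each side in the RefSeq order of ARS-UCD2.0. Of the 50 neighbours of GCKR, 5 were named, FNDC4, PLB1, ABHD1, CGREF1 and SLC30A3. The first 4 had a positive log2 fold change, as had 52.8% of the 413 named genes and 48.4% of those tested. PLB1, a phospholipase, had 2.21, 1.56, 0.591, 2.39 and 6.32 CPM in MNEB1 to MNEB5 and between 6.97 and 30.15 CPM in SNEB cows, so its groups did not overlap. PLB1 was called in edgeR (2.37, adjusted p = 0.0667), but not in limma-voom (0.108), in the 9 cows not run on flow cell A (0.264), or on leaving out any 1 of MNEB1 to MNEB4, SNEB1, SNEB2 and SNEB4 (adjusted p 0.106 to 0.168). The zinc transporter gene SLC30A3 had 0 to 2 reads in an MNEB cow and 4 to 13 in an SNEB cow, and so reached the minimum for testing only in SNEB cows, which fixes its direction. CGREF1 had 31.1 ± 5.31 CPM (SD, n = 5) in MNEB and 58.0 ± 18.8 CPM (SD, n = 6) in SNEB cows, and ABHD1 had 252 ± 66.0 and 384 ± 24.8 CPM. Neither was called in edgeR (0.88, adjusted p = 0.142, and 0.60, adjusted p = 0.114), and both were in DESeq2 (0.0180 and 0.0147) and the edgeR exact test (0.0208 and 0.0178). ABHD1 was also called in limma-voom (0.0940) and, in edgeR, without MNEB5 (0.76, adjusted p = 0.0149), with upper-quartile factors, at least 10 reads in 5 cows, flow cells as a term or the replicate block (adjusted p 0.0915 to 0.0998). Of the 50 neighbours of PKLR only EFNA1 was named, with 264 ± 46.1 CPM in MNEB and 186 ± 46.4 CPM in SNEB cows (edgeR adjusted p = 0.358). Names came from the study's list, which was chosen on these samples, and the unnamed neighbours were not analysed here.

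SNEB3, with the lowest PKLR and the highest GCKR, also had the highest levels of FNDC4 (128 CPM), GK (175 CPM) and SULT1C2 (34.3 CPM) and, among SNEB cows, the lowest of PDK4 (71.9 CPM), FBP2 (5.36 CPM) and SLC2A5 (1.07 CPM). It was run on 1 lane and had the fewest reads of the SNEB cows, 1869837. Its leukocyte markers summed to 255 CPM (MARCO 178, TIMD4 77.2), against 75.6 to 143 CPM in the other SNEB cows; their part in its levels of PKLR and GCKR was not tested.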
